A study of Mus musculus with 16 samples.

Results

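Mitochondrial ribosomal proteins are the nuclear-encoded protein subunits of the ribosome that works inside mitochondria, and their genes were taken as every symbol that starts with Mrpl or Mrps followed by a digit, pseudogenes left out. The rule found 78 genes among the 13727 tested, 49 named for the large subunit (Mrpl) and 29 for the small subunit (Mrps). It used no expression value. The series measured total RNA from the heart apex of male C57Bl/6 mice on 16 Agilent one-colour arrays, with 4 hearts in each of 4 groups. AKT1 KO mice were homozygous AKT1 flox/flox with loxP sites around exons 6 and 7. AKT2 KO mice were homozygous AKT2 flox/flox with loxP sites around exons 5 and 6. Double knockout (DKO) mice were homozygous for both floxed genes, and control mice had no floxed allele named in their labels. All 16 mice, controls included, were heterozygous for MHC-mercremer, a tamoxifen-inducible Cre recombinase driven by the αMHC promoter of cardiomyocytes. All received 500 µg hydroxytamoxifen a day for 5 days and were killed 21 days after induction at 3 months of age, although their titles read "untreated". Recombination was therefore aimed at cardiomyocytes, while the RNA also holds that of the other cells of the apex.

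The mitochondrial ribosome translates the few messenger RNAs of the mitochondrial genome, all of which encode subunits of the respiratory chain and ATP synthase. Its RNAs are encoded in mitochondrial DNA, whereas its proteins are encoded in the nucleus, made in the cytosol and imported. The small subunit decodes the messenger RNA, the large subunit joins the amino acids, and both hold proteins with bacterial counterparts beside proteins found only in mitochondria. Cardiomyocytes are rich in mitochondria, and inherited defects of several of these proteins cause cardiomyopathy in patients.

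Each value is a background-subtracted spot intensity, divided by the 75th percentile of its array and given as log2. The 75th percentile lay between 492 and 809 intensity units, and 24403 to 30568 of the 56605 distinct probes (43.1 to 54%) were well above background on an array. The number of arrays limits the precision. Akt2 (chromosome 7) averaged 2.54 ± 0.092 in AKT2 KO and 2.91 ± 0.10 in DKO hearts, against 4.91 ± 0.062 in control hearts (SD, n = 4 each), a difference of -2.37 and -2.0. Akt1 averaged 5.23 ± 0.26 in AKT1 KO, 5.11 ± 0.076 in DKO and 5.13 ± 0.032 in control hearts. Akt1 had 2 kept probes and Akt2 had 3, and only the brightest of each is reported here. Where that Akt1 probe lies relative to the deleted exons is not given in the sources used here. It therefore does not check the AKT1 KO and DKO labels. The 7 cardiomyocyte markers, Myh6 and Tnnt2 among them, had a median log2 signal of 8.24 or more on every array. A pair of arrays stood apart, AKT1 KO replicate 1 with a highest correlation of 0.988 with another array and DKO replicate 3 with 0.966, where the next lowest was 0.990. Values without these arrays are given where they matter.

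All 78 genes were measured well. Their 101 probes were all kept, 57 genes had 1 probe, every gene was above background on all 16 arrays and no spot was saturated. Among the 57 genes with 1 probe were Mrps12, Mrpl35, Mrpl28, Mrpl18, Mrpl19, Mrpl33, Mrpl23 and Mrpl52, so no second probe could check them. Where a gene had several probes, the brightest was reported. The other 23 probes, from 21 genes, had the same sign of difference in DKO hearts as the reported probe in 23 of 23 cases and the same call in 20, with Mrps7 called on its second probe only and Mrpl58 and Mrps23 on the reported probe only.

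Most mitochondrial ribosomal protein genes were lower in DKO hearts than in control hearts. Of the 78, 58 fell and 3 rose in DKO hearts against control hearts at a limma adjusted p under 0.05, and the remainder did not pass. Among all genes tested, 45.6% were called in this comparison, 21.1% lower and 24.4% higher. The median log2 difference of the 78 genes was -0.45, a 1.36-fold lower level, while that of all genes was 0.017. The 4 DKO arrays lay below all 4 control arrays for 58 genes and above them for 3, and among all genes this held for 20.6% and 23.8%. Most falls were modest: 25 genes were at least 1.5-fold lower, 4 of them at least 2-fold, and 33 called genes were less than 1.5-fold lower. In these bulk samples fewer cardiomyocytes and less RNA per cardiomyocyte cannot be told apart.

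**Figure D1:**
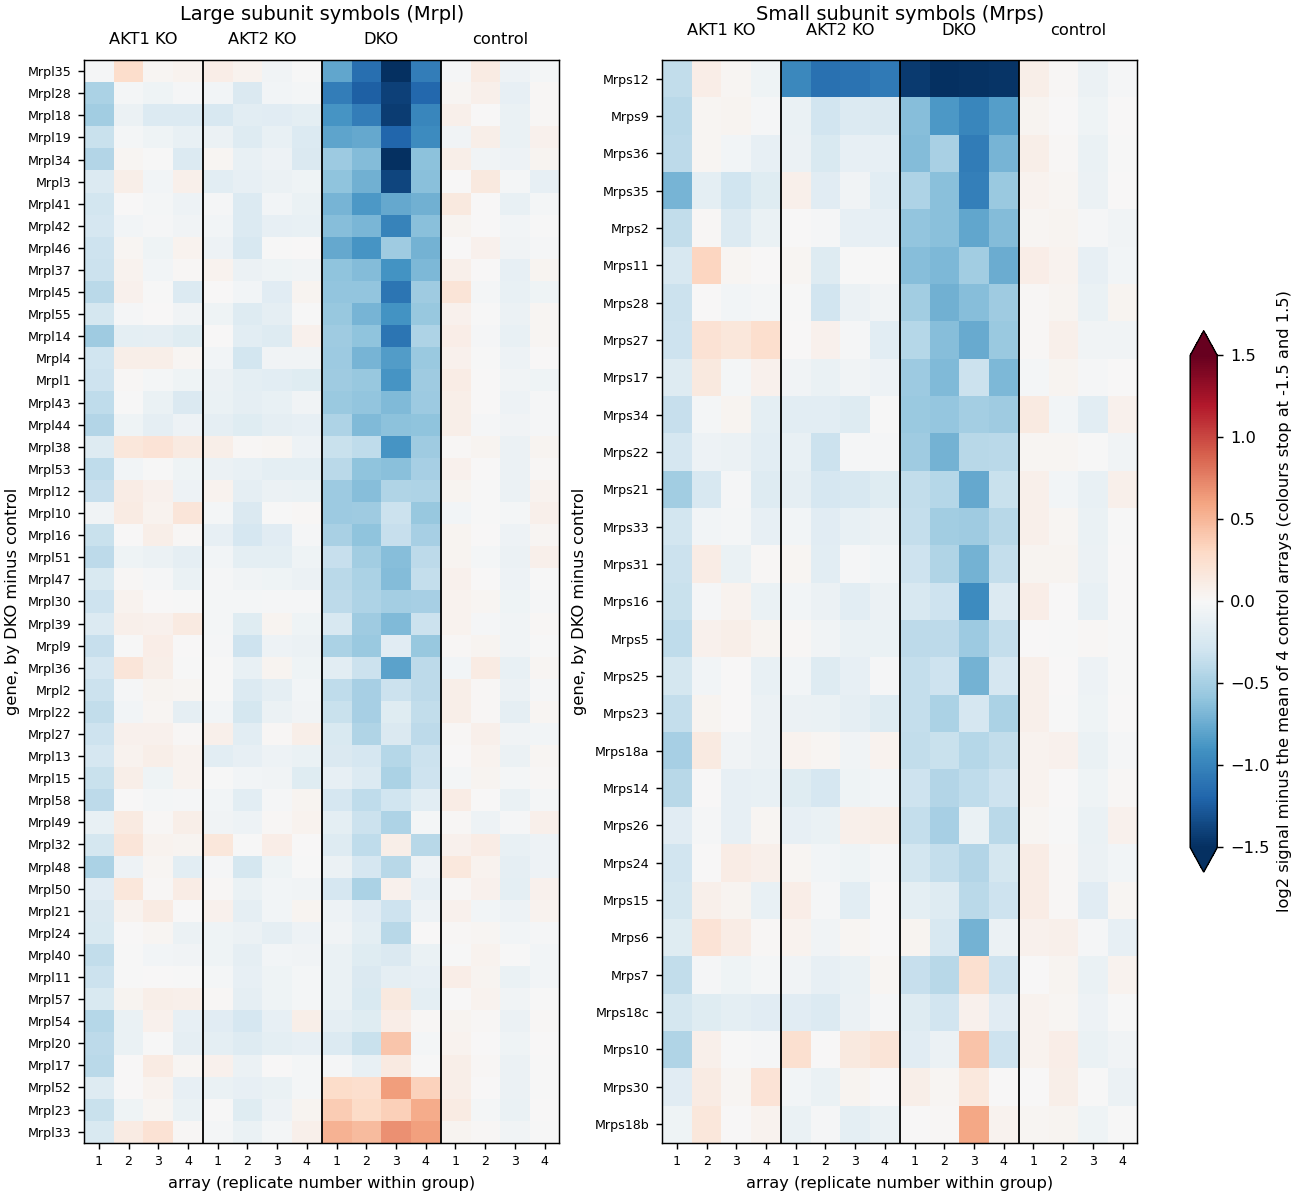
Log2 signal of each of the 78 genes (rows, large subunit symbols left and small subunit symbols right, ordered by DKO minus control) on each of the 16 arrays (columns, by group), as the difference from the mean of the 4 control arrays. Blue is lower and red is higher, with colours stopping at 1.5 either way. Most rows are blue on the 4 DKO arrays, Mrps12 is also blue on the 4 AKT2 KO arrays, Mrpl33, Mrpl23 and Mrpl52 are red on the DKO arrays, and AKT1 KO replicate 1 is pale blue in nearly every row.

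Falls were found in both subunits. Of the 49 Mrpl genes, 35 fell and 3 rose, with a median difference of -0.47. Of the 29 Mrps genes, 23 fell and none rose, with a median of -0.43. Taken array by array, the median distance of the Mrpl genes from their control means was -0.38, -0.49, -0.47 and -0.42 on the 4 DKO arrays, and that of the Mrps genes was -0.36, -0.45, -0.52 and -0.37. The Mrpl median was the lower of the pair on replicates 1, 2 and 4 and the Mrps median on replicate 3. On the control arrays both medians lay between -0.086 and 0.057. With quantile normalization 41 Mrpl and 25 Mrps genes fell, with medians of -0.51 in both, while 3008 of all 13727 genes fell. The difference between the subunits was not given a test, since the genes of a subunit are not replicates.

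**Figure D2:**
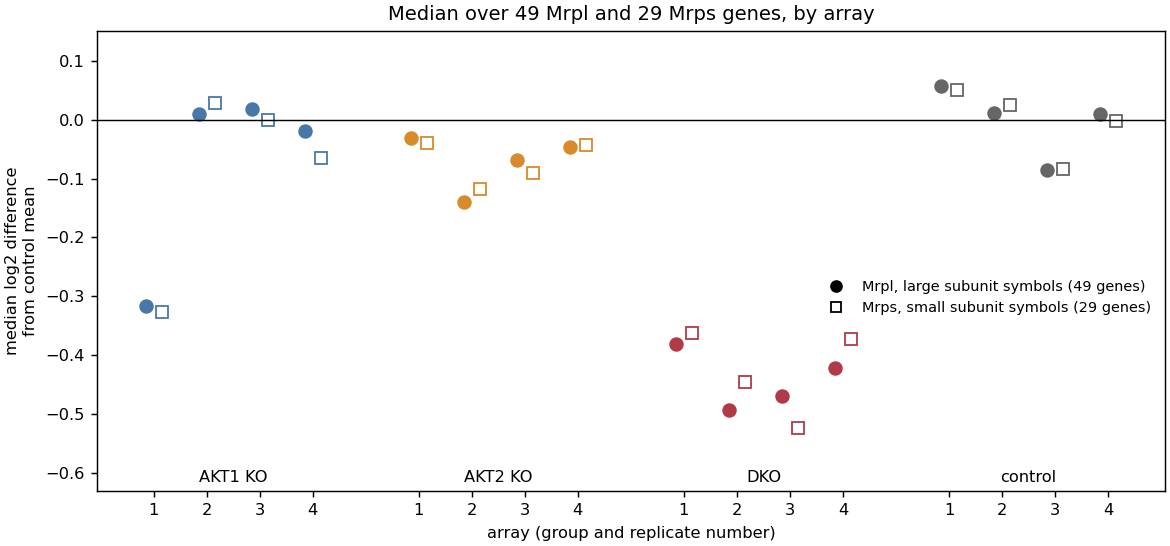
Median log2 difference from the mean of the 4 control arrays on each array (columns, by group and replicate number), over the 49 Mrpl genes (filled circles) and the 29 Mrps genes (open squares). All 4 DKO arrays lie between -0.36 and -0.52, the AKT2 KO arrays lie between -0.032 and -0.14, and AKT1 KO replicate 1 lies near -0.32, away from the other 3 arrays of its group.

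Falls were found among proteins with and without a bacterial counterpart. Of 30 conserved large subunit genes, 22 fell and 2 rose (median -0.45), and of 19 mitochondria-specific large subunit genes, 13 fell and 1 rose (median -0.47). In the small subunit, 12 of 16 conserved genes fell (median -0.42) and 10 of 11 mitochondria-specific genes fell (median -0.46). Mrps18a and Mrps30 carry small subunit symbols although their proteins sit in the large subunit. Mrps18a fell by 0.38 (limma adjusted p = 0.00795), while Mrps30 differed by 0.07 (95% interval -0.10 to 0.24). The 78 genes lie on 17 chromosomes, each of which holds at least 1 gene that fell.

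**Figure D3:**
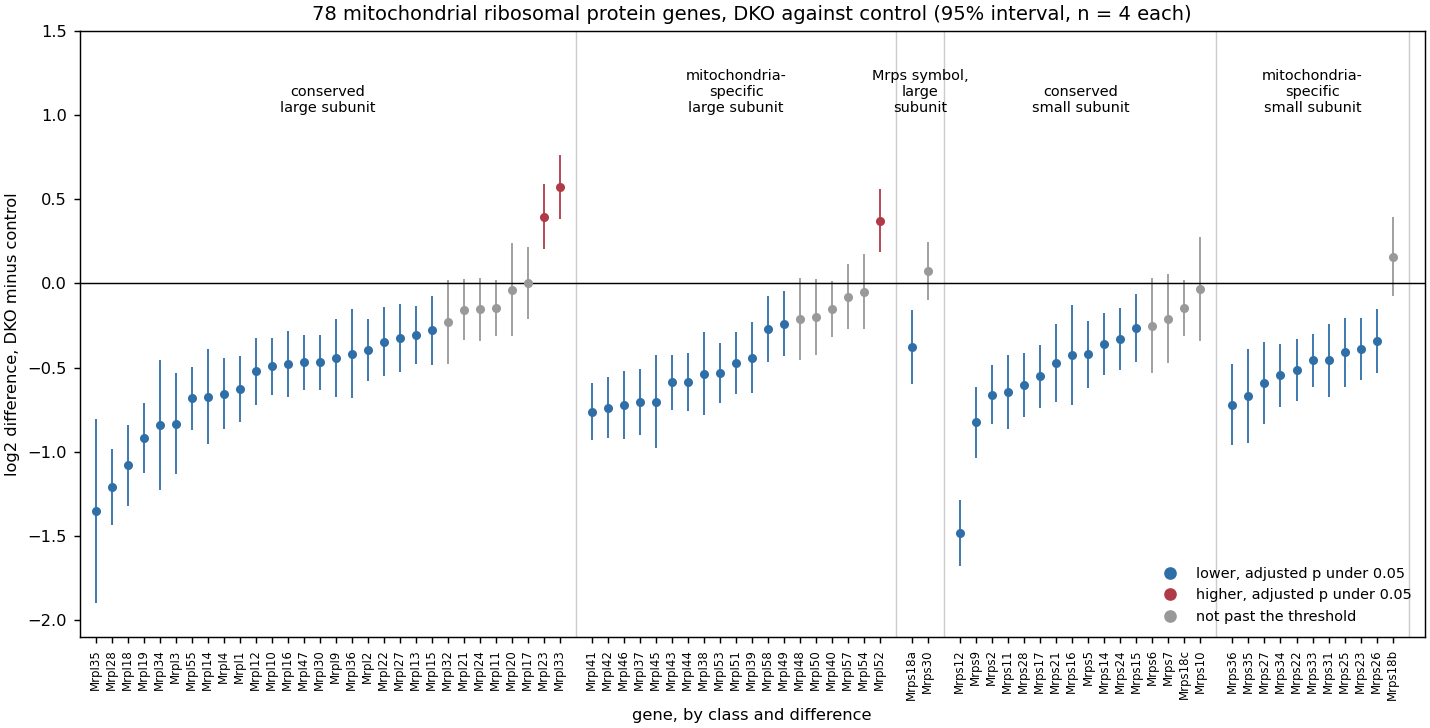
Log2 difference of DKO minus control for each of the 78 genes with its 95% interval (n = 4 arrays each), grouped by class and ordered by size. Blue points fell and red points rose at an adjusted p under 0.05, and grey points did not pass. Every class holds falls, 4 genes lie below -1 and the 3 rises all have large subunit symbols.

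Mrps12, read by 1 probe, showed the largest fall of all 78 genes. It encodes the small subunit protein at the decoding centre, the counterpart of a bacterial protein in which mutations give streptomycin resistance. Its log2 signal was 3.08, 2.96, 3.03 and 3.04 in DKO hearts, against 4.60, 4.53, 4.43 and 4.49 in control hearts. The groups were far apart, with a spread of 0.047 in DKO and 0.073 in control hearts (SD, n = 4 each). The difference was -1.48 ± 0.091 (SE), a 2.80-fold lower level (limma adjusted p = 2.86e-08).

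It was also the 1 gene of the 78 that was called in AKT2 KO hearts, where 0.131% of all genes were, 0.0583% as falls. There its log2 signal was 3.55, 3.40, 3.40 and 3.46, below all 4 control arrays and above all 4 DKO arrays. The difference from control was -1.06 ± 0.091 (limma adjusted p = 2.47e-05), and the same gene was 0.42 lower in DKO than in AKT2 KO hearts (0.00181). In AKT1 KO hearts its log2 signal was 4.14, 4.61, 4.55 and 4.45, which overlapped the control values. AKT2 KO lay -0.99 from AKT1 KO hearts for Mrps12 (limma adjusted p = 3.39e-05), the 1 call among the 78 in a comparison that called 0.896% of all genes, 0.481% as falls. It was also the 1 gene whose 4 AKT2 KO arrays lay below all 4 AKT1 KO arrays, where 2.91% of all genes lay below and 3.9% above. Within the first slide the AKT2 KO difference from control was -1.09 (0.0242) and within the second -1.03 (0.349), with 2 arrays a group on each slide.

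Mrps12 lies on chromosome 7, as does Akt2, and their starts are 1.15 Mb apart in RefSeq GRCm38.p6. It is the 1 gene of the 78 within 20 Mb of Akt2, and chromosome 12, which carries Akt1, holds none of them. Mrps12 and Sars2, which encodes the mitochondrial seryl-tRNA synthetase, start 147 bases apart on opposite strands, and their promoter windows share 246 bases. The window of Mrps12 (RefSeq, GRCm38.p6, chr7:28741772-28742071, minus strand) is shown because both genes are read from it, and its capitals mark the bases between the start sites of Mrps12 and Sars2.
Mrps12: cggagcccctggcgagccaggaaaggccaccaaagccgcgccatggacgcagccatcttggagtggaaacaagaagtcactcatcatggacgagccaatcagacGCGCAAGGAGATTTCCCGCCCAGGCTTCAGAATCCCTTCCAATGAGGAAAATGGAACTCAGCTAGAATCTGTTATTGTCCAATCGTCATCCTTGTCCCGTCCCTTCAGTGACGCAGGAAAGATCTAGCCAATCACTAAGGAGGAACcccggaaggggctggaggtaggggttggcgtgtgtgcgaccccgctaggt

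Sars2 did not follow Mrps12 in AKT2 KO hearts. Its log2 signal was 0.41, 0.18, 0.49 and 0.52 in AKT2 KO hearts, against 0.26, 0.19, 0.29 and 0.27 in control hearts, a difference of 0.15 ± 0.098 (95% interval -0.06 to 0.36). In DKO hearts, where its log2 signal was -0.45, -0.52, -0.32 and -0.11, Sars2 fell by 0.60 ± 0.098 (limma adjusted p = 1.81e-04). The log2 ratio of Mrps12 to Sars2 thus stood at 2.91 to 3.22 in AKT2 KO, 3.15 to 3.52 in DKO and 4.23 to 4.62 in AKT1 KO hearts, against 4.14 to 4.34 in control hearts. Both groups with floxed Akt2 lay below the other groups on every array. This pair was chosen after its values were seen, and the ratio is given without a test.

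Calls in AKT2 KO hearts were more frequent around Mrps12 than among all genes, of which 0.131% were called. Akt2 and Mrps12 left out, 6 of 132 tested genes within 3 Mb were called (4.55%), 3 lower and 3 higher, and 2 of the 30 between Akt2 and Mrps12 (6.67%), Map3k10 lower and Gmfg higher. In AKT1 KO hearts 1 of the 132 was called (0.758%, against 0.794% of all genes). It was Sertad3, which was also 1 of the 6 called in AKT2 KO hearts. Within 100 kb none of 11 other genes was called in AKT2 KO hearts. All 4 AKT2 KO arrays nevertheless lay below all control arrays for 3 of the 11 (Lgals4, Ech1 and Nfkbib) and above them for 3 (Sirt2, Fbxo27 and Fbxo17), where 5.11% and 2.51% of all genes did so. Lgals4 was at 0.62, 1.28, 0.59 and 0.34 in AKT2 KO hearts, against 2.22, 2.38, 2.27 and 1.96 in control hearts, a difference of -1.5 that was larger than that of Mrps12 and was not called (limma adjusted p = 0.86). In DKO hearts 7 of the 11 were called (63.6%), as were 45.6% of all genes. In these groups the deletion of Akt2 and the stretch of chromosome 7 that comes with its floxed allele cannot be told apart.

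**Figure D4:**
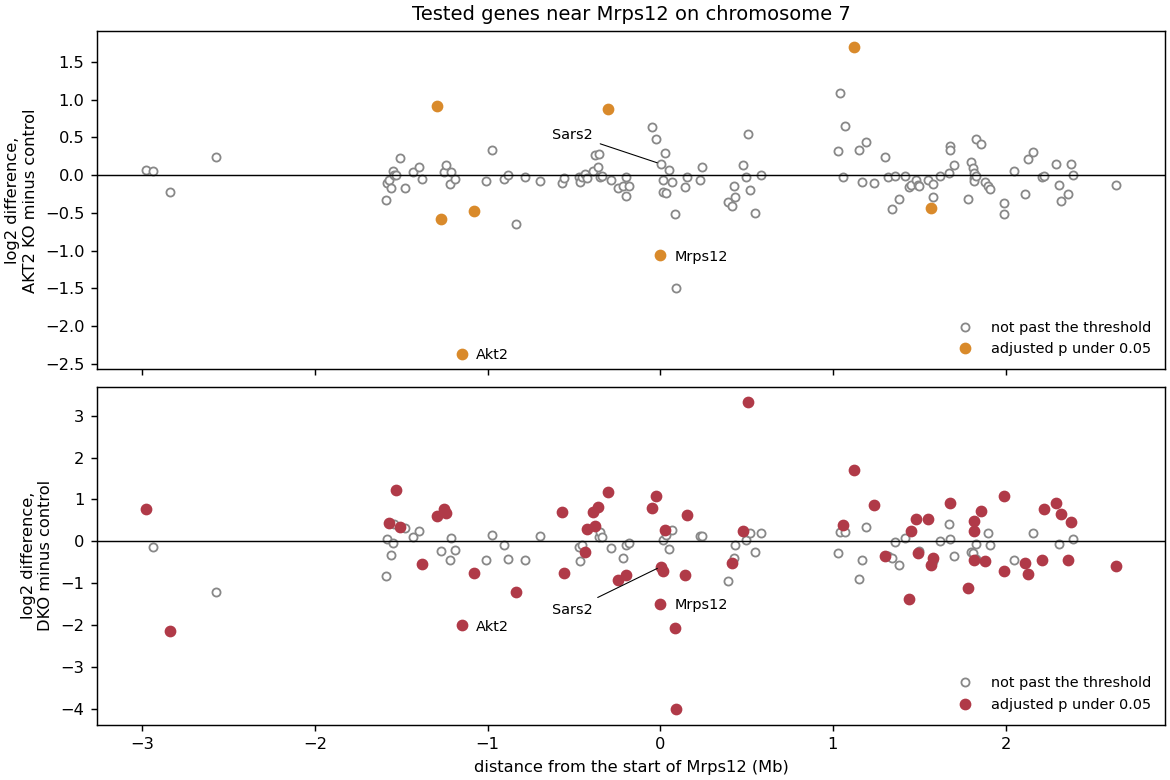
Log2 difference from control (vertical axis) of tested genes within 3 Mb of the start of Mrps12 on chromosome 7, against their distance from it (horizontal axis, Mb), for AKT2 KO (above) and DKO (below). Filled points have an adjusted p under 0.05. In AKT2 KO hearts Mrps12 at -1.06 and Akt2 at -2.37 stand lowest among the filled points, 6 other genes are filled and Sars2, beside Mrps12, is at 0.15, whereas many genes of the region are called in DKO hearts.

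In the large subunit the falls were led by 4 genes with bacterial counterparts. Mrpl35 had a log2 signal of -1.42, -1.77, -3.11 and -1.67 in DKO hearts, against -0.66, -0.51, -0.72 and -0.67 in control hearts. The groups did not overlap, and DKO replicate 3 lay well below the other 3 DKO arrays. The difference was -1.35 ± 0.26 (limma adjusted p = 6.18e-04), and without DKO replicate 3 it was -0.98 (1.56e-06).

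Mrpl28 was steadier, at 2.42, 2.23, 2.05 and 2.27 in DKO hearts, against 3.49, 3.53, 3.33 and 3.47 in control hearts. Its difference was -1.21 ± 0.11, a 2.31-fold lower level (limma adjusted p = 7.63e-07). Mrpl18, whose human counterpart takes part in bringing a small ribosomal RNA into mitochondria, was at 3.25, 3.09, 2.71 and 3.15 in DKO hearts, against 4.2, 4.14, 4.03 and 4.15 in control hearts, a difference of -1.08 ± 0.11 (3.60e-06). Mrpl19 fell by 0.92 ± 0.098 (4.65e-06), with 0.35, 0.37, -0.06 and 0.20 in DKO hearts, against 1.08, 1.23, 1.03 and 1.20 in control hearts. For these 3 genes, as for Mrpl35, all 4 DKO arrays lay below every array of the other 3 groups.

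After Mrps12, the small subunit falls were led by Mrps9, Mrps36 and Mrps35. Mrps9, a conserved protein of the subunit head, was at 2.39, 2.17, 2.04 and 2.20 in DKO hearts, against 3.07, 3.03, 2.96 and 3.03 in control hearts, and fell by 0.83 ± 0.10 (limma adjusted p = 1.47e-05). Mrps36, at 4.44, 4.60, 4.05 and 4.39 in DKO hearts, against 5.18, 5.11, 4.99 and 5.08 in control hearts, fell by 0.72 ± 0.11 (1.30e-04). Its protein is now known as a part of the alpha-ketoglutarate dehydrogenase complex of the tricarboxylic acid cycle, so this symbol does not stand for the ribosome alone. Mrps35, found only in mitochondria, was at 2.93, 2.77, 2.38 and 2.84 in DKO hearts, against 3.45, 3.43, 3.31 and 3.40 in control hearts, and fell by 0.67 ± 0.13 (7.69e-04). Its AKT1 KO values, 2.7, 3.25, 3.1 and 3.21, also lay below all control arrays, though that difference of -0.33 was not called (adjusted p = 0.504).

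Mrpl33, Mrpl23 and Mrpl52 rose where the other called genes fell. Mrpl33, a small protein whose counterpart lies near the transfer RNA exit site of bacterial ribosomes, was at 7.02, 6.98, 7.19 and 7.12 in DKO hearts, against 6.54, 6.52, 6.46 and 6.5 in control hearts. Its difference was 0.57 ± 0.088, a 1.49-fold higher level (limma adjusted p = 1.20e-04). Mrpl23, whose bacterial counterpart lies at the exit of the peptide tunnel, was at 5.91, 5.81, 5.89 and 6.08 in DKO hearts, against 5.64, 5.49, 5.43 and 5.53 in control hearts, and rose by 0.40 ± 0.090 (0.00229). Mrpl52, a mitochondria-specific protein, was at 5.37, 5.34, 5.72 and 5.44 in DKO hearts, against 5.18, 5.1, 5.0 and 5.09 in control hearts, and rose by 0.37 ± 0.087 (0.00288). In all 3 genes the 4 DKO arrays lay above every array of the other 3 groups, and the rises were called in each of the 5 scalings and background settings tried. Within either slide alone Mrpl33 was called and Mrpl23 and Mrpl52 were not.

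**Figure D5:**
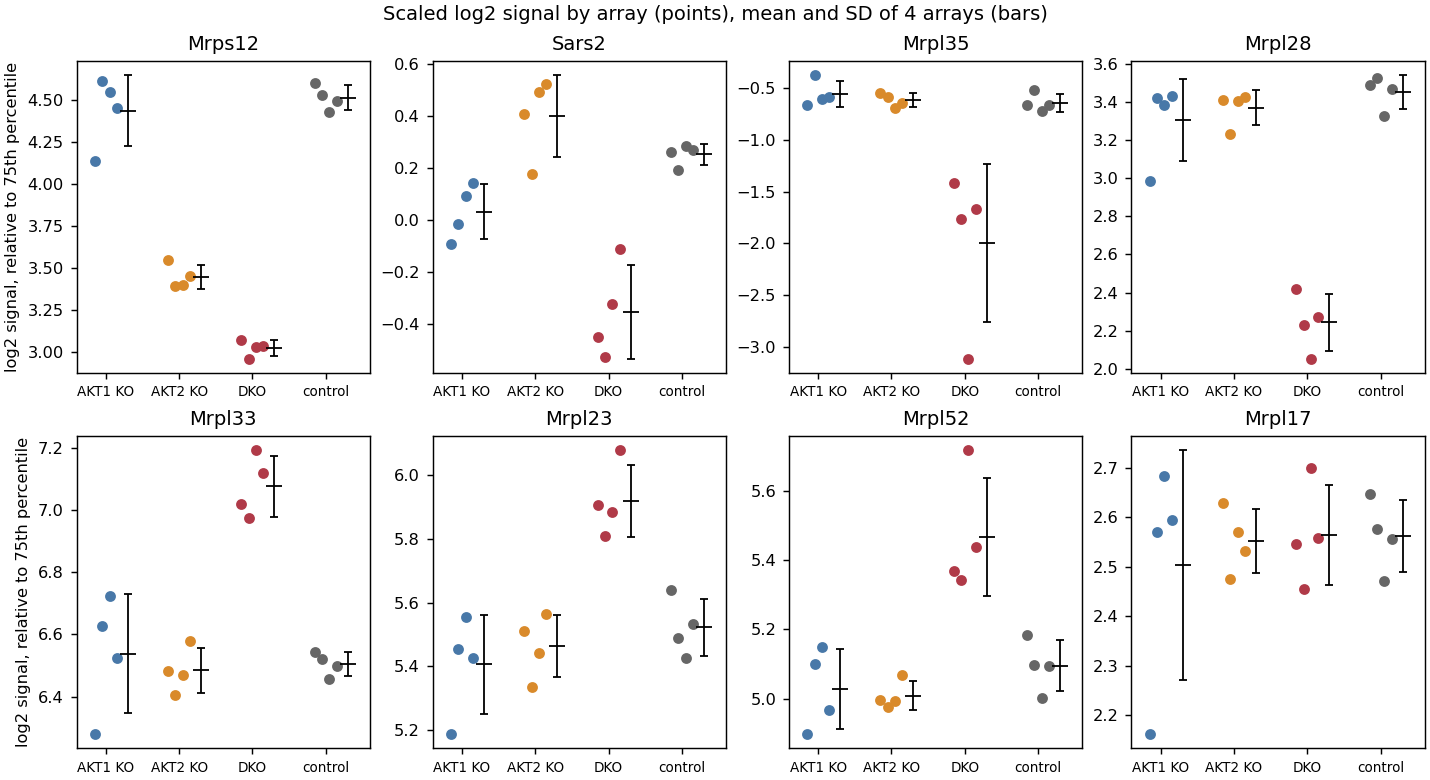
Scaled log2 signal on each array (points) with the mean and SD of 4 arrays (bars) in AKT1 KO, AKT2 KO, DKO and control hearts, for Mrps12 and its neighbour Sars2, the falls Mrpl35 and Mrpl28, the rises Mrpl33, Mrpl23 and Mrpl52, and Mrpl17. Each vertical axis has its own range. Mrps12 is low in AKT2 KO and DKO hearts, Sars2 in DKO hearts, and Mrpl17 averages 2.56 in both DKO and control hearts.

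The genes nearest to no difference in DKO hearts came from both subunits. Mrpl17 was at 2.54, 2.45, 2.70 and 2.56 in DKO hearts, against 2.65, 2.58, 2.47 and 2.56 in control hearts, with a 95% interval of the difference from -0.21 to 0.22. The intervals were -0.32 to 0.24 for Mrpl20, -0.27 to 0.17 for Mrpl54, -0.34 to 0.27 for Mrps10 and -0.31 to 0.02 for Mrps18c. For Mrpl20 and Mrps10, DKO replicate 3 widened the interval and drew the difference toward 0. It read 5.49 for Mrpl20, against 4.74 to 5.04 on the other 3 DKO arrays and a control mean of 5.07. For Mrps10 it read 2.98, against 2.24 to 2.46 and a control mean of 2.55. Among the alternatives run, Mrpl20 was called lower in 2 (down to -0.30) and Mrps18c in 5 (down to -0.28). All 5 intervals stop short of the median difference of the 78 genes, -0.45.

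Among the genes known from inherited cardiomyopathy in patients, all 4 examined fell in DKO hearts. So did 58 of the 78 genes and 21.1% of all genes tested. Mrpl3, a core large subunit protein, was at 3.69, 3.57, 2.91 and 3.67 in DKO hearts, against 4.30, 4.44, 4.26 and 4.17 in control hearts, and fell by 0.83 ± 0.14 (limma adjusted p = 2.43e-04). Mrpl44, related to a family of RNA-cutting enzymes, fell by 0.59 ± 0.082 (5.34e-05), with 2.28, 2.08, 2.13 and 2.14 in DKO hearts, against 2.83, 2.73, 2.69 and 2.73 in control hearts. Mrps22, a mitochondria-specific protein, fell by 0.51 ± 0.087 (2.48e-04), and Mrps14, a conserved one, by 0.36 ± 0.087 (0.00341). None of the 4 was called in either single knockout. Mrpl12, the stalk protein that in human cells also binds the mitochondrial RNA polymerase, fell by 0.52 ± 0.094 (4.20e-04).

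Few of the 78 genes were called in the single knockouts. In AKT1 KO hearts none was called (limma), 6 had an unadjusted p under 0.05, and with array quality weights 1, Mrps18c, was called, while 0.794% of all genes were called. The median difference was -0.08, 64 of 78 values were negative, and for 5 genes all 4 arrays lay below all control arrays, as they did for 6.29% of all genes (2.9% lay above). Most of that came from AKT1 KO replicate 1, on which 77 of the 78 genes lay below the lowest control array, with a median distance of -0.32 from the control means. The other 3 AKT1 KO arrays had medians of -0.027 to 0.022, and without replicate 1 the median over the group was -0.0066. In AKT2 KO hearts the median difference was -0.077 with 71 negative values, 11 genes lay below control on all 4 arrays, against 5.11% of all genes (2.51% above), and the median distances of the 4 arrays were -0.037, -0.14, -0.076 and -0.047. All genes together had medians of -0.032 in AKT1 KO and -0.022 in AKT2 KO hearts.

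Most of the 78 genes were also lower in DKO hearts than in each single knockout. In DKO against AKT1 KO hearts 50 of the 78 genes fell and 3 rose, where 20.3% and 26.7% of all genes did and 47% were called. In DKO against AKT2 KO hearts 51 fell and 3 rose, where 18.6% and 23.5% did and 42.1% were called. These comparisons share the DKO arrays. A fall against all 3 other groups was called for 48 of the 78 genes, as it was for 15.6% of all genes. The AKT1 KO comparison carries the spread of its replicate 1: fitted on the arrays of those groups alone it called 37 genes, and without that array 65. Shares of all genes called in those fits are not given here.

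For 29 of the 78 genes the DKO difference was not the sum of both single knockout differences on the log2 scale (limma adjusted p under 0.05). It was more negative than the sum for 26 genes and more positive for 3, where 10.1% and 15.9% of all genes were called in those directions. All 26 also fell against control, which was so for 9.14% of all genes. The 3 more positive genes were the 3 that rose in DKO hearts. Mrpl35 had the largest departure, -1.46 (0.00881), followed by Mrpl28 at -0.98 (3.94e-04). Mrps12 had a departure of -0.35 that was not called (0.0601), and it also differed in AKT2 KO hearts. This count moved with the scaling and the weighting of arrays, to 56 genes with quantile normalization and with the authors' values and 53 with array weights. The share of all genes called under those settings is not given here, so the move is not shown to be particular to these genes.

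Most genes that work with the mitochondrial ribosome were also lower in DKO hearts, where 21.1% of all genes were called lower and 24.4% higher. Of 5 ribosomal subunits under other symbols, 4 fell. Among these, Ptcd3, an RNA-binding subunit, fell by 1.0 ± 0.11 (limma adjusted p = 6.87e-06), and Dap3, a GTP-binding subunit, by 0.28 ± 0.078 (0.00955). Of 19 translation factors, 15 fell and none rose, with a median of -0.62. Tufm, the elongation factor that carries transfer RNAs to the ribosome, fell by 1.12 ± 0.13 (1.26e-05), and Tsfm, its exchange factor, by 0.87 ± 0.11 (1.63e-05). Of 26 assembly and rRNA modification genes, 20 fell and 1 rose (median -0.45). Mrm2, a methyltransferase of the large ribosomal RNA, fell by 1.11 ± 0.11 (1.61e-06).

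The mitochondrial aminoacyl-tRNA synthetases, which charge transfer RNAs with amino acids, gave 13 falls and 2 rises among 19 genes (median -0.47). Lars2 fell by 0.83 ± 0.091 (limma adjusted p = 6.72e-06) and Hars2 by 0.68 ± 0.098 (6.69e-05). The rises, a smaller share than the 24.4% of all genes that rose, were Gars, by 0.52 ± 0.089 (2.70e-04), and Kars, by 0.35 ± 0.076 (0.00156). Each of these genes encodes both the cytosolic and the mitochondrial form of its enzyme. Of 11 genes that control mitochondrial gene expression, 6 fell and 2 rose, where 21.1% and 24.4% of all genes did. The rises were thus no more frequent than among all genes. Polrmt, the mitochondrial RNA polymerase, fell by 0.72 ± 0.11 (9.84e-05) and Tfam, which packages mitochondrial DNA, by 0.56 ± 0.084 (9.46e-05). Nrf1, a transcription factor of nuclear genes for mitochondria, rose by 0.49 ± 0.083 (2.45e-04), and Myc, a growth-related transcription factor, by 3.24 ± 0.37 (9.70e-06).

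The cytosolic ribosome went the other way. Of 82 cytosolic ribosomal protein genes, 76 rose and 2 fell in DKO hearts, with a median of 0.63. Among all genes 24.4% rose and 21.1% fell. The nuclear-encoded subunits of oxidative phosphorylation, the complexes that mitochondrial translation serves, gave 71 falls and no rise among 80 genes, with a median of -0.55. Under the 5 scalings and background settings tried, the median of the 78 mitochondrial ribosomal protein genes lay between -0.42 and -0.51, that of the cytosolic ribosomal proteins between 0.59 and 0.65, and that of all genes between 0.0044 and 0.017. The count of falls among the 78 genes lay between 56 and 66, and that among all 13727 genes between 2733 and 3021.

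Some markers of cell types moved in the same comparison, in which 21.1% of all genes were called lower and 24.4% higher. All 7 cardiomyocyte markers fell in DKO hearts (median -0.49), with a summed linear level of 1980 to 2360 in DKO hearts, against 2670 to 3090 in control hearts. With quantile normalization 3 of the 7 were called, with a median of -0.20, while the median of the 78 genes was -0.51. All 5 fibroblast markers rose (median 0.73), with summed levels of 274 to 315 in DKO hearts, against 177 to 189 in control hearts. Of 5 macrophage markers 3 rose, with sums of 22.3 to 31.5 in DKO hearts, against 18.7 to 21.7 in control hearts. Endothelial sums overlapped, at 78.5 to 94.9 in DKO hearts, against 82.6 to 95.8 in control hearts, with 1 of 5 markers lower. Mural sums were 63.4 to 79.6 in DKO hearts, against 91.8 to 98.9 in control hearts, with 1 of 4 markers lower and 1 higher. These endothelial and mural counts lay near the shares of all genes. Of the adipocyte markers 1 of 2 tested rose, and none of 3 erythroid markers and 1 lymphocyte marker was called. The part of these shifts in the falls of the 78 genes was not tested.

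The falls were found on both slides. Each slide held 2 arrays of every group. Within the first slide 59 of the 78 genes fell and 1 rose in DKO against control hearts, with a median of -0.45, where 20.4% of all genes fell and 20.8% rose (41.2% called). Within the second slide 19 fell and 1 rose, again with a median of -0.45, where 8.99% of all genes fell and 8.97% rose (18% called). The second slide holds DKO replicate 3. Of the 22 alternatives run for this comparison, those that did not split the slides kept 53 of the 58 falls and all 3 rises. The 5 falls lost in at least 1 of these were Mrpl15, Mrpl49, Mrpl58, Mrps15 and Mrps16, which had differences of -0.28, -0.24, -0.27, -0.26 and -0.43. Without DKO replicate 3, 59 genes fell and 3 rose, and the share of all genes called in that fit is not given here.

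Promoter letters were read in the RefSeq windows (GRCm38.p6, 250 bases before to 50 after the start). Of the 78 genes, 69 matched a window, and they had 75 windows. The letters GCGCANGCG, of the kind bound by NRF1, were present on either strand in 21.3% of these windows and in 6.25% of all 32851 windows. CCGGAAGT, an ETS site of the kind bound by GABPA, was present in 16% and 3.89%, and AAGATGGCG, of the kind bound by YY1, in 10.7% and 1.4%. The E-box CACGTG was found in 9.33% and 7.15%, and the FoxO letters TGTTTAC in 2.67% and 3.65%. Counted by gene, the E-box was held by 5 of the 69 genes (7.25%), against 8.09% of all genes with a window. The letters of more than 1 motif were held by 6 genes, and 32 genes, Mrps12 among them, held none of the 5.

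By direction in DKO hearts, the ETS letters were held by 8 of 50 genes that fell, by 2 of 3 that rose and by 2 of 16 that did not pass. The YY1 letters were held by 8 genes, Mrpl35, Mrpl36, Mrpl37, Mrpl42, Mrps11, Mrps18a, Mrps24 and Mrps27. All 8 fell, as did 50 of the 69 genes with a window, and a link between letters and direction was not tested. NRF1 letters were held by 12 of the 50 that fell, by none of the 3 that rose and by 4 of the 16 others. Mrpl18, which fell, also held the ETS letters, and Mrpl23, which rose, held none of the motifs. Windows are shown for 1 fall with YY1 letters and for the 2 rises with ETS letters, all with the motif in capitals. They are Mrpl35 (chr6:71823735-71824034, minus strand), Mrpl33 (chr5:31613701-31614000, plus strand) and Mrpl52 (chr14:54426659-54426958, plus strand).
Mrpl35: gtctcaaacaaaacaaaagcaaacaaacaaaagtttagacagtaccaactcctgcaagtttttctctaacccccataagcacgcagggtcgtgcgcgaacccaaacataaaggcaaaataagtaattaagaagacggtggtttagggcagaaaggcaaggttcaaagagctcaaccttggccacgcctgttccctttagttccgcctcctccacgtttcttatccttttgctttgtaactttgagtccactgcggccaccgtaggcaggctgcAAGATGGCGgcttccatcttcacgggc
Mrpl33: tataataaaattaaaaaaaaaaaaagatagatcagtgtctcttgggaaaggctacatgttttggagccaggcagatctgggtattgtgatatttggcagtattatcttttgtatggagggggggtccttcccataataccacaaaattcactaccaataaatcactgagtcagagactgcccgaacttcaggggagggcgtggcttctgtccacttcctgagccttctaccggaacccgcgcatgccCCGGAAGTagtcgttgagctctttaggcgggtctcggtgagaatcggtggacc
Mrpl52: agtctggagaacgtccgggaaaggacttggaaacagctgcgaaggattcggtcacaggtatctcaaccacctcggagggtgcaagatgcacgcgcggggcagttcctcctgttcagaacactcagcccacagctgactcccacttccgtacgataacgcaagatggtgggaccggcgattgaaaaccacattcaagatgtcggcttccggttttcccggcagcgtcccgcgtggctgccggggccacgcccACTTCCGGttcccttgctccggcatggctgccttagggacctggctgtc

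In Mrpl35 the YY1 letters fill bases 274 to 282 of the window, past the start site. The ETS letters span the start site in Mrpl33, at bases 248 to 255, and follow it in Mrpl52, at bases 252 to 259, where they are on the other strand. A match of letters describes the window and shows no binding.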

How the data were processed

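RNA was labelled in 1 colour and hybridised to 16 Agilent arrays. Per the file headers, Feature Extraction 12.0.3.1 made the deposited spot intensities, background-subtracted and spatially detrended, and the flags (0 or 1) for spots well above background, outliers and saturation. The authors' deposited values are on a log2 scale and lie around 0 for each probe, as the values themselves show. How they were normalized is not given in the sources used here, and they served as an alternative. Array by array they correlated at 0.9585 to 0.995 with quantile-normalized values and at 0.8439 to 0.9969 with the 75th percentile values, each centred per probe. Results with the authors' values and with quantile normalization are therefore not separate checks.

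Here, intensities were divided by the array's 75th percentile and log2 transformed, outlier spots and controls were left out, spots of a probe were averaged, and a probe was kept if well above background on every array of at least 1 group. The brightest kept probe stood for each of 13727 genes. Each probe's RefSeq accession came from the array's design and was matched to a gene symbol in RefSeq, which named 58.3% of the probes. Chromosomes and promoter windows came from RefSeq GRCm38.p6, whereas the design used an older build. All 16 arrays entered 1 limma fit (limma 3.58.1 in R 4.3.3) with 4 group means and 12 residual degrees of freedom, and p-values were adjusted by Benjamini-Hochberg over all 13727 genes in each of 7 comparisons, at a threshold of 0.05. The departure from additivity is the DKO difference minus the sum of both single knockout differences. The fit was tested on simulated data. Intervals cover 95%.

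The mice are separate animals as labelled, but no litter or batch is named, and the comparisons with control share the 4 control arrays. Replicate numbers were not taken as pairs, since the labels tie them to no litter, batch or day and not every pair passed 0.1: deviations of same-numbered arrays correlated between -0.35 and 0.39, over 0.1 in 15 of 24 pairs. Arrays at the same slide and row correlated between -0.037 and 0.39, over 0.1 in 19 of 24 pairs, and slide and row were blocked in an alternative. The genes, the lists and the tests were chosen with earlier results of these data known. Genes named are those called in any comparison, Akt1 and Akt2, the 4 largest differences without overlap and the 3 nearest 0 in each subunit. Genes tied to cardiomyopathy, called genes of partner lists (at most 4 per list) and tested genes within 0.1 Mb of Mrps12 were also named. Neighbours of the other called genes were not examined. Mrpl54, Mrps18c, Myc, Nrf1, Polrmt, Tfam, Dap3, Gars, Kars, Map3k10, Gmfg, Sertad3 and the genes of the outlying arrays were named after their values were seen. Promoter motifs were searched as short core letters, chosen after longer forms with fewer matches had been counted. Alternatives changed the background correction, scaling, dim-probe filter, probe choice, array weights, samples fitted, blocks and arrays left out.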

Additional observations from a re-analysis of the deposited data

Results flagged for a closer look

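In 31 of 312 sets, 1 set for each of the 78 genes in each of 4 groups, 1 of the 4 arrays lay far from the others by Dixon's test (9.94%, where chance gives about 5%). The log2 signal of that array and then the median of the other 3 follow each gene in parentheses. AKT1 KO replicate 1 was the low array for 19 genes. Among these were Mrpl11 (4.747, 5.063), Mrpl13 (4.141, 4.447), Mrpl14 (5.862, 6.257), Mrpl2 (5.305, 5.654), Mrpl27 (3.574, 3.951), Mrpl28 (2.983, 3.421), Mrpl30 (5.098, 5.416), Mrpl38 (1.984, 2.348), Mrpl4 (5.543, 5.931) and Mrpl40 (2.591, 2.923). The others were Mrpl42 (6.067, 6.269), Mrpl53 (4.531, 4.871), Mrpl57 (4.694, 4.999), Mrpl58 (4.451, 4.817), Mrps27 (1.615, 2.149), Mrps28 (4.748, 5.044), Mrps5 (1.340, 1.792), Mrps7 (3.986, 4.328) and Mrps9 (2.621, 3.051). AKT2 KO replicate 2 was low for Mrpl28 (3.232, 3.409) and Mrpl4 (5.573, 5.787). DKO replicate 3 was low for Mrpl1 (1.468, 1.817), Mrpl3 (2.914, 3.671), Mrpl34 (3.053, 4.005), Mrpl42 (5.314, 5.674), Mrpl45 (2.385, 2.893) and Mrps16 (4.586, 5.291), and high for Mrpl10 (1.848, 1.615), Mrps18b (4.818, 4.259) and Mrps7 (4.588, 4.013). Control replicate 3 was low for Mrps28 (4.974, 5.110).

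For 29 genes the DKO difference departed from the sum of the AKT1 KO and AKT2 KO differences at a limma adjusted p under 0.05. The negative departures, in log2, were -1.46 for Mrpl35, -0.98 for Mrpl28, -0.70 for Mrpl3, -0.65 for Mrpl18, -0.64 for Mrps27, -0.63 for Mrpl19, -0.63 for Mrpl38, -0.63 for Mrps11 and -0.60 for Mrpl37. Smaller ones were -0.58 for Mrpl41, -0.58 for Mrpl46, -0.54 for Mrps9, -0.53 for Mrpl42, -0.53 for Mrpl45, -0.52 for Mrpl4, -0.51 for Mrpl10, -0.51 for Mrpl55 and -0.47 for Mrps17. The remaining negative ones were -0.43 for Mrps2, -0.40 for Mrpl39, -0.40 for Mrps28, -0.39 for Mrpl12, -0.39 for Mrpl1, -0.38 for Mrpl30, -0.33 for Mrpl47 and -0.32 for Mrpl43. The positive departures were 0.57 for Mrpl23, 0.56 for Mrpl33 and 0.53 for Mrpl52. AKT1 KO replicate 1 enters each of these values, and without it 42 genes were called.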

How the results depend on the processing

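No result changed direction in any alternative. Falls and rises of DKO against control were called for 57 to 69 genes in the alternatives that kept both slides, for 60 within slide 1 and for 20 within slide 2, where 2 arrays a group remain. Of all genes, 41.2% were called within slide 1 and 18% within slide 2. Within slide 2 the calls were 14 for DKO against AKT1 KO, 14 for DKO against AKT2 KO, 0 for AKT2 KO against control (1 with both slides, Mrps12), 0 for AKT2 KO against AKT1 KO and 0 for the departure from additivity. That departure gave 56 genes with quantile normalization, 56 with the authors' values and 53 with array quality weights, against 29, and the cause was not tested. Array quality weights gave 1 call in AKT1 KO against control, where there was otherwise 0. Leaving out 1 array at a time gave 57 to 62 genes for DKO against control, 49 to 65 for DKO against AKT1 KO, 50 to 57 for DKO against AKT2 KO, 22 to 42 for the departure, 1 for AKT2 KO against control, 1 for AKT2 KO against AKT1 KO and 0 for AKT1 KO against control. With the replicate number as a block, the counts were 61 for DKO against control and 23 for the departure. Blocking on array position (slide and row) gave 60 for DKO against control. Array number limits the precision, with 4 a group.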
